A study of Mus musculus with 17 samples.

Results

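The interleukin 17 (IL-17) receptor genes, the ligand gene Il17c and the adaptor gene Traf3ip2 were examined in retinal pigment epithelium (RPE) of young Serpine3 reporter mice. The members are the 7 of 22253 gene rows of the count table whose symbols are Il17ra, Il17rb, Il17rc, Il17rd, Il17re, Il17c and Traf3ip2. Il17re was singled out because of its values in GFP+ cells compared with ctrl center cells, so its levels in these libraries are given as a description. The other genes were included by name, as relatives or partners of Il17re. All 17 libraries came from Serpine3GFP/+ mice at 2 months of age. In these heterozygotes 1 Serpine3 allele carries a GFP reporter, and every group, controls included, has this genotype. Each library was made by SMART-Seq from polyA RNA of a pool of 10 to 15 RPE cells that were picked by hand, as the labels say, and the study's methods give a lower range of cells. The 3 groups were GFP+ cells of the periphery (6 libraries), GFP-negative cells of the periphery (ctrl periphery, 5 libraries) and GFP-negative cells of the center (ctrl center, 6 libraries). The labels number the animals, and these are renamed mice 1 to 7, of which mouse 1 stands for 2 numbers given together. Mice 1, 2, 4, 5 and 7 gave a library of each group, mouse 3 gave only a GFP+ library and mouse 6 only a ctrl center library. No untouched or wild-type RPE was among them, and the GFP+ cells were defined by the reporter itself.

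IL-17 receptors work as heteromers. IL-17RA is the shared subunit. It joins IL-17RE in the receptor for IL-17C, a cytokine made mostly by epithelial cells. With IL-17RC it forms the receptor for IL-17A and IL-17F, and with IL-17RB that for IL-25. The receptors pass their signal through the adaptor Act1, encoded by Traf3ip2, to TRAF6, NF-kappaB and MAP kinases. IL-17RD, also known as Sef, is a relative best known as a brake on FGF signalling. The RPE is the pigmented epithelium between the photoreceptors and the choroid.

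Total counts per library ranged from 9896118 to 22467079, so that a count of 3, the limit that a count of 0 allows, was worth 0.112 to 0.664 CPM. CPM is counts per 1000000 counts of a library, after TMM scaling over all 17 libraries, and limits of this kind cover counting error only. Serpine3 had 107 to 576 counts in the 6 GFP+ libraries, 0 to 5 in ctrl periphery and 0 in all ctrl center libraries. Of 17 RPE markers 14 were above 3 counts in every library, among them Rpe65, Rlbp1 and Otx2, whereas Best1 had at most 2 counts. The markers Tyrp1 and Pmel were above 3 counts in 14 and 7 libraries. Tyrp1 had 220 ± 158, 37.0 ± 49.0 and 2.67 ± 3.89 CPM (mean ± SD) in GFP+, ctrl periphery and ctrl center. Pmel had 23.4 ± 25.8, 3.65 ± 6.74 and 0.0121 ± 0.0296 CPM, so these markers were not even across groups. Mitochondrial transcripts made up 0.71% to 17.2% of counts in GFP+, 12.5% to 30.4% in ctrl periphery and 13.7% to 47.3% in ctrl center. Genes at 10 or more counts numbered 9089 to 10231 in GFP+, 7966 to 10543 in ctrl periphery and 5392 to 10450 in ctrl center, where the library of mouse 5 had the fewest, ahead of mouse 7 with 6430 and mouse 4 with 6681.

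Il17re and Il17rc are tandem neighbours on mouse chromosome 6. In GENCODE M21 (GRCm38) Il17re lies on the plus strand at chr6:113458484-113470758 and has 9 transcripts, 5 of them protein coding, of which the longest has 15 exons. Il17rc follows on the same strand at chr6:113471427-113483140, and 668 bases separate the genes. The last 222 of these bases, chr6:113471205-113471426 on the plus strand of GRCm38.p6, are the only DNA between the abundant and the sparse receptor gene that the RefSeq promoter table holds, and they are shown for that reason.
Il17rc upstream: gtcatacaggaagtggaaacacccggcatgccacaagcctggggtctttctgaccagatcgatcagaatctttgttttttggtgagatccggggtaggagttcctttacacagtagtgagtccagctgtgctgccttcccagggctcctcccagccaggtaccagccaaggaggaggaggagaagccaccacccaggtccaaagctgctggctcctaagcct
This stretch contains neither TATAAA (the TATA box) nor CACGTG (an E-box) nor GGGCGG (a GC box) on either strand. These 6-base motifs occur in 11.0%, 5.63% and 31.8% of the 32851 promoter windows of the same 222-base length. Il17ra lies farther along the same chromosome (chr6:120463247-120487559, plus strand). Il17rb (chr14:29996135-30008896, minus strand) and Il17rd (chr14:27038941-27107286, plus strand) are on chromosome 14, Il17c (chr8:122422020-122423639, plus strand) is on chromosome 8, and Traf3ip2 (chr10:39612934-39655307, plus strand) is on chromosome 10. Exons of Il17rb and Traf3ip2 overlap exons of Actr8 and E130307A14Rik, which are annotated on the opposite strands, and the use of strand in counting is not given in the sources used here. Counts of both genes are therefore uncertain to that extent.

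Il17re was present in all 17 libraries, with at least 173 counts in each. In GFP+ RPE its level ranged from 83.3 to 129 CPM with a median of 105 (mean 105 ± 20.4, SD, n = 6). In ctrl periphery the libraries of mice 1, 2, 4, 5 and 7 had 48.5, 63.3, 76.5, 28.1 and 78.7 CPM (mean 59.0 ± 21.1, n = 5). In ctrl center the level ranged from 19.5 to 59.95 CPM with a median of 33.6 (mean 34.7 ± 14.6, n = 6). The groups were thus ordered GFP+, ctrl periphery, ctrl center by their means. Every GFP+ library was above every library of both control groups, by a narrow margin over ctrl periphery (83.3 against 78.7 CPM), whereas ctrl periphery and ctrl center overlapped. Over all genes tested, 0.818% had every GFP+ library above every ctrl center library and 0.683% every GFP+ library above every ctrl periphery library. In each mouse that gave all groups the GFP+ library had the highest level, by 1.33-fold to 4.38-fold over ctrl periphery and 1.94-fold to 4.47-fold over ctrl center. The ctrl periphery library exceeded the ctrl center library in 4 of 5 mice. The exception was mouse 5, with 28.1 CPM in ctrl periphery and 38.3 CPM in ctrl center, and by plain library totals this order turned (25.6 against 17.5 CPM). In bulk pools a higher level per cell and a larger share of expressing cells cannot be told apart.

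**Figure D1:**
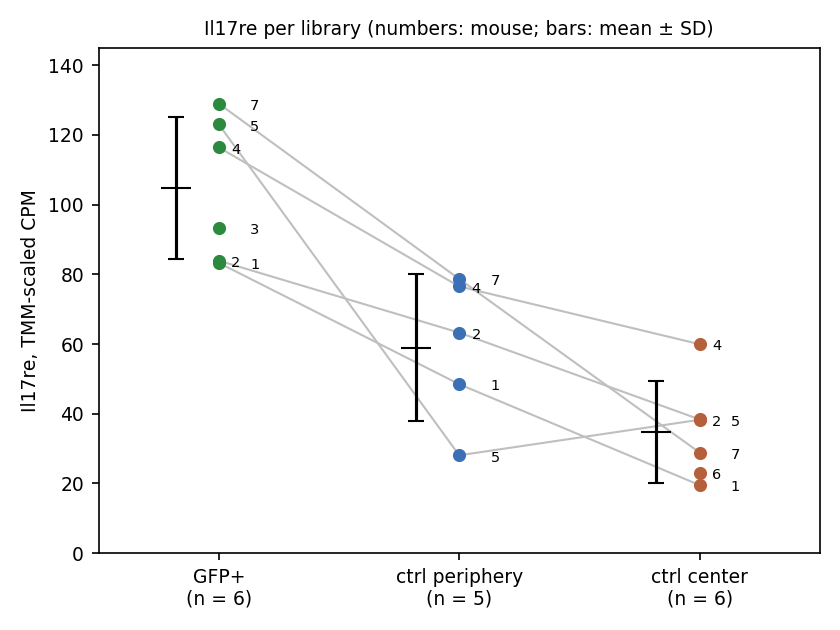
Il17re in TMM-scaled CPM (vertical axis) for each library in the 3 groups, with points numbered by mouse, grey lines joining libraries of 1 mouse and black bars giving the mean ± SD. The 6 GFP+ libraries lie between 83.3 and 129 CPM, above all control libraries, and the control groups overlap.

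Il17re varied less between libraries than the median of all genes with a mean of at least 10 CPM. Its coefficient of variation was 19.5% in GFP+, 35.7% in ctrl periphery and 42.1% in ctrl center. The median over the 7054 genes with a mean of at least 10 CPM was 48.7%, 54.3% and 86.0% in the same groups. Of these genes 7.05%, 25.4% and 13.1% had a lower coefficient of variation than Il17re. Many of them have lower levels than Il17re, and choosing a gene by GFP+ against ctrl center favours a small spread in those groups. Nothing further is therefore read from this difference. The fitted log2 fold change of GFP+ against ctrl center, the comparison that chose the gene, was 1.60 (SE 0.39). For GFP+ against ctrl periphery it was 0.85 (SE 0.29), which did not pass the test (adjusted p = 0.681, Benjamini-Hochberg adjustment over 10102 genes of the quasi-likelihood test in edgeR, unadjusted p = 0.0105). This comparison shares the GFP+ libraries with the one that chose the gene. For ctrl periphery against ctrl center it was 0.78 (SE 0.57), and it did not pass either (adjusted p = 1.00 by edgeR over 9535 genes, unadjusted p = 0.189). The mitochondrial share was lower in GFP+ than in most control libraries, and with mitochondrial genes removed before scaling the log2 fold changes were 1.60, 0.84 and 0.76. Without the ctrl center library of mouse 5 they were 1.63 for GFP+ against ctrl center and 0.83 for ctrl periphery against ctrl center. Within the first run of animal numbers (mice 1 to 3) Il17re averaged 86.8, 55.9 and 29.0 CPM in GFP+, ctrl periphery and ctrl center (n = 3, 2 and 2). Within the second run (mice 4 to 7) it averaged 123, 61.1 and 37.5 CPM (n = 3, 3 and 4), so the order of the means was that of the pooled libraries.

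Il17ra, which encodes the shared subunit that joins IL-17RE in the receptor for IL-17C, was above 3 counts in 8 of 17 libraries. In GFP+ RPE it had 33, 0, 257, 62, 0 and 0 counts in mice 1, 2, 3, 4, 5 and 7, or 2.84 ± 4.44 CPM (SD, n = 6). In ctrl periphery it had 107, 136, 150, 179 and 2 counts in mice 1, 2, 4, 5 and 7, or 6.87 ± 5.15 CPM (n = 5). In ctrl center mouse 2 had 100 counts and each of the other libraries at most 1, which gave 0.964 ± 2.17 CPM (n = 6). The groups overlapped, and the subunit was most often found in ctrl periphery, where 4 of 5 libraries had it, against 3 of 6 in GFP+ and 1 of 6 in ctrl center. The GFP+ libraries of mice 2, 5 and 7 thus held 1734, 1811 and 2748 counts of Il17re and no count of Il17ra. The log2 fold change of Il17ra was -1.26 (SE 1.72) for GFP+ against ctrl periphery and 2.80 (SE 1.70) for ctrl periphery against ctrl center (adjusted p = 1.00 for both, edgeR). In the paired fit, with the mouse as replicate block, these values were -4.99 and 5.33 (adjusted p = 0.850 and 0.996), and the run of animal numbers as covariate gave 4.86 for the second (adjusted p = 1.00). Without the GFP+ library of mouse 3 the first was -2.51, and without the ctrl periphery library of mouse 5 it was -0.79. In the fit of GFP+ against ctrl center Il17ra did not pass the filter on low counts.

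Il17rc, the partner of IL-17RA for IL-17A and IL-17F, was also above 3 counts in 8 of 17 libraries. It averaged 2.93 ± 4.13 CPM in GFP+ (n = 6), 1.60 ± 1.502 CPM in ctrl periphery (n = 5) and 0.953 ± 1.54 CPM in ctrl center (n = 6), with overlapping ranges. Its presence followed the animal numbers. All 7 libraries of mice 1 to 3 had it, with 35 to 268 counts, and 1 of the 10 libraries of mice 4 to 7 did, the ctrl periphery library of mouse 4 with 64 counts. The other 9 had 0 or 1 count. Of the 384 genes above 3 counts in exactly 8 libraries, Il17rc included, 4 (1.04%) had all 7 libraries of the first run among them. This split was noticed after the values were seen and was not tested, and the labels name no date or batch. Il17ra was above 3 counts in 5 of 7 libraries of the first run and 3 of 10 of the second, whereas Il17re was present in all libraries of both. The log2 fold change of Il17rc was 0.87 (SE 1.81) for GFP+ against ctrl periphery, and -2.55 once the run was added as a covariate. For ctrl periphery against ctrl center it was 0.74 (SE 1.67). Neither comparison passed the test (adjusted p = 1.00 for both, edgeR).

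Il17rb and Il17c were not detectable at this depth. Il17rb, the IL-25 receptor subunit, had 2 counts in the ctrl center library of mouse 7 and 0 in the other 16. Il17c, the ligand of the IL-17RE complex, had 0 counts in all 17 libraries, which allows at most 0.112 to 0.664 CPM in each.

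**Figure D2:**
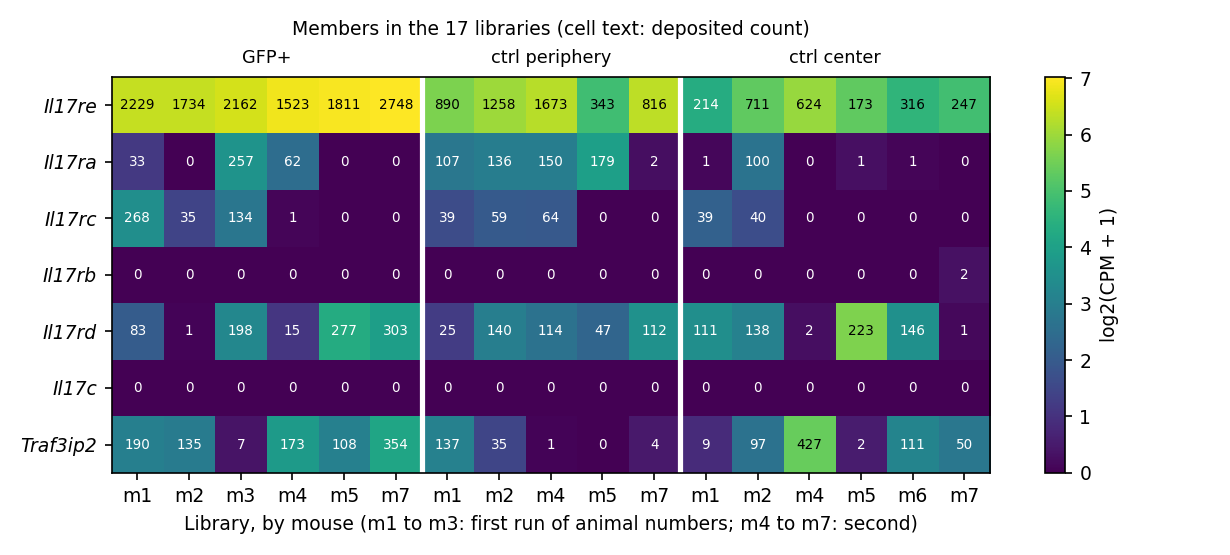
Colour gives log2(CPM + 1) of the 7 members (rows) in the 17 libraries (columns, by group and mouse), and the text in each cell is the deposited count. The Il17re row is filled throughout, Il17ra and Il17rc are filled in 8 libraries each, and Il17c has 0 counts everywhere.

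Traf3ip2, which encodes the adaptor Act1, was above 3 counts in 14 libraries. All 6 GFP+ libraries had it, from 0.302 to 16.6 CPM with a median of 7.22 (mean 8.52 ± 5.70). In ctrl periphery it had 137, 35, 1, 0 and 4 counts in mice 1, 2, 4, 5 and 7 (mean 1.93 ± 3.17 CPM, n = 5). In ctrl center it ranged from 0.442 to 41.0 CPM with a median of 5.54 (mean 10.2 ± 15.4, n = 6), the highest being mouse 4 with 427 counts. The ranges of the 3 groups overlapped. The log2 fold change was 2.12 (SE 1.53) for GFP+ against ctrl periphery and -2.40 (SE 1.77) for ctrl periphery against ctrl center, and neither passed the test (adjusted p = 1.00 for both, edgeR). Single libraries moved these values. Without the ctrl periphery library of mouse 1 they were 3.95 and -4.20, and without the ctrl center library of mouse 4 the second was -1.04. With the mouse as replicate block the first was 4.84 (adjusted p = 0.832).

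Il17rd was above 3 counts in 14 libraries and, like Il17re, had at least 1 count in every library. Its level was 7.64 ± 7.61 CPM in GFP+ (range 0.0484 to 18.8, n = 6) and 5.65 ± 3.54 CPM in ctrl periphery (range 1.36 to 10.8, n = 5). In ctrl center it was 13.0 ± 18.4 CPM (range 0.117 to 49.3, n = 6), where the highest value belongs to mouse 5, the library with the fewest detected genes. The groups overlapped, with log2 fold changes of 0.45 (SE 1.24) for GFP+ against ctrl periphery and -1.15 (SE 1.48) for ctrl periphery against ctrl center (adjusted p = 1.00 for both, edgeR). Without the ctrl center library of mouse 5 the second value was -0.0089. For the comparison of GFP+ with ctrl center, given as a description, the log2 fold changes of Il17rd and Traf3ip2 were -0.77 (SE 1.43) and -0.25 (SE 1.26), and without the ctrl center library of mouse 5 that of Il17rd was 0.41.

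**Figure D3:**
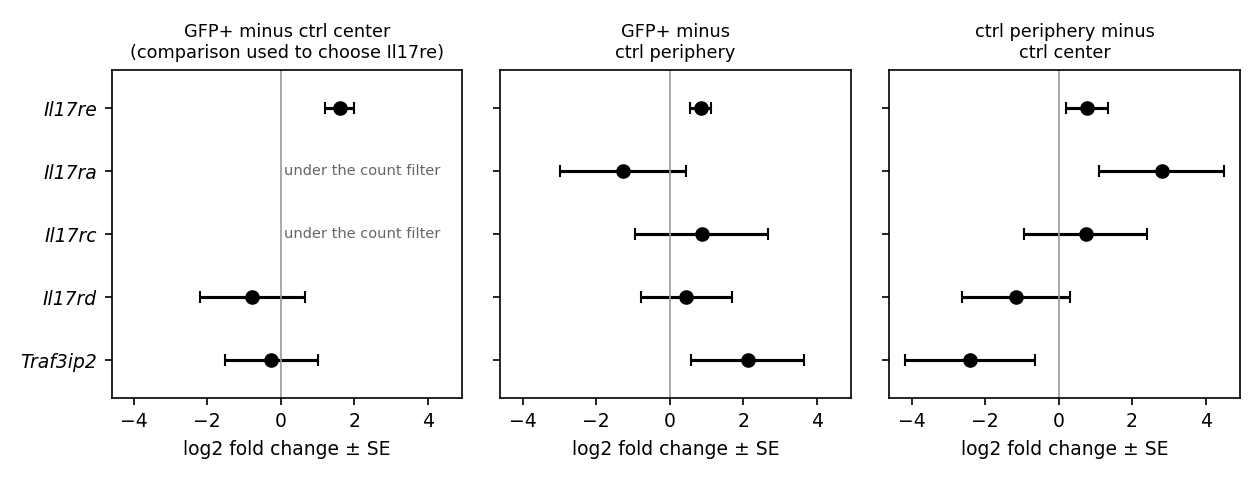
Log2 fold change ± SE (horizontal axis, edgeR) of the 5 members that passed the filter on low counts in at least 1 fit, in the 3 comparisons named above the panels. Il17re has the shortest error bars, with SE of 0.39, 0.29 and 0.57, against 1.24 to 1.81 for the other members.

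A call needed an adjusted p under 0.01 with a log2 fold change beyond 1 in either direction, and no member met this in edgeR. For GFP+ against ctrl center 3 of 7 members passed the filter on low counts and 0 were called by edgeR, where 0.0431% of all 9286 tested genes were. At an unadjusted p under 0.05 it was 1, Il17re, where 5.8% of all genes passed. DESeq2 called that gene, as it did 1.7% of genes. Since this comparison chose the gene, nothing is read from these counts. For GFP+ against ctrl periphery 5 members were tested and 0 were called by edgeR or by DESeq2, where 0.0396% and 0.442% of genes were. At an unadjusted p under 0.05 it was 1, again Il17re, where 5.58% of genes passed. For ctrl periphery against ctrl center 5 members were tested and 0 were called by edgeR or by DESeq2, where 0% and 0.258% of genes were. At an unadjusted p under 0.05 it was 0, where 2.7% of genes passed.

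To compare levels between genes, CPM was divided by the median length of each gene's protein-coding transcripts. Over all 17 libraries Il17re had 31.4 ± 16.7 CPM per kilobase (SD). It was followed by Il17rd with 2.84 ± 3.73, Traf3ip2 with 2.51 ± 3.48, Il17rc with 1.69 ± 2.49 and Il17ra with 0.434 ± 0.582. From Il17rd downward, neighbours in this order did not differ beyond their spread. With the union of exons or the longest transcript as the length, Traf3ip2 came before Il17rd, and Il17re remained first with 11.3 and 22.6 CPM per kilobase. In each of the 8 libraries with Il17ra above 3 counts, Il17re had the higher level per kilobase, by 7.01-fold to 247-fold with a median of 32.3-fold. Against Il17rc it was higher by 2.83-fold to 25.6-fold in 8 of 8 libraries, against Il17rd by 1.15-fold to 151-fold in 14 of 14 and against Traf3ip2 by 1.98-fold to 418-fold in 14 of 14. With the union of exons as the length Traf3ip2 was the higher of both in the ctrl center library of mouse 4 (ratio 0.918), so that Il17re was higher in 13 of 14, and the other counts were the same.

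Il17re and Il17ra were above 3 counts together in 3 of 6 GFP+, 4 of 5 ctrl periphery and 1 of 6 ctrl center libraries. With Traf3ip2 as a further requirement the numbers were 3, 2 and 1. Il17ra, Il17rc and Traf3ip2, the genes of the receptor for IL-17A and its adaptor, were present together in 2, 2 and 1 libraries of the same groups. These numbers describe pools of cells, and subunits found in 1 pool need not have been in 1 cell.

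**Figure D4:**
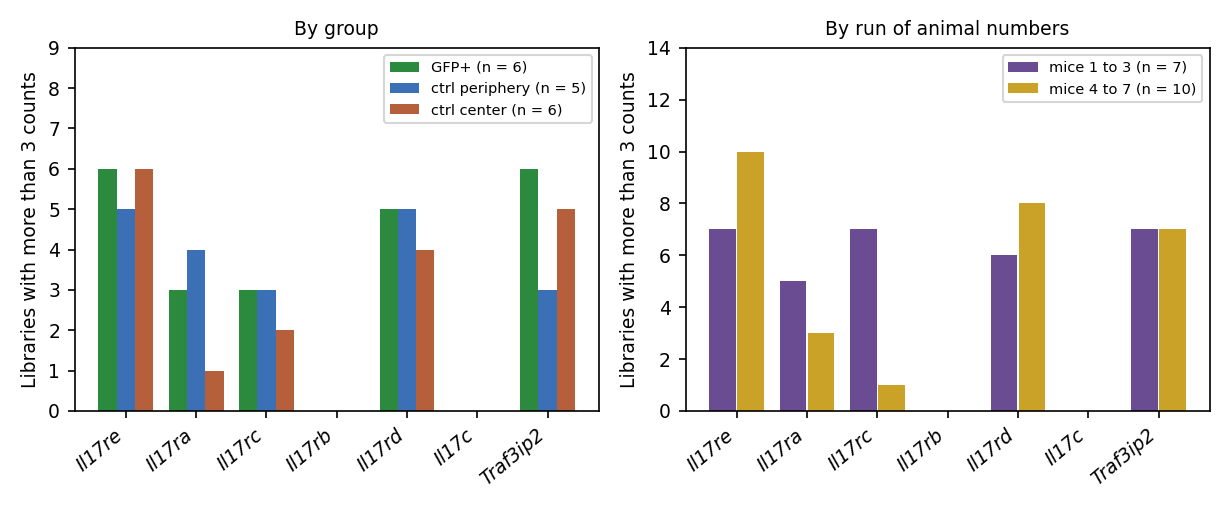
Number of libraries with more than 3 counts of each member, by group (left panel) and by run of animal numbers (right panel). Il17re is present in all libraries, Il17rc in 7 of 7 libraries of mice 1 to 3 and in 1 of 10 of mice 4 to 7, and Il17rb and Il17c in none.

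Il17a, Il17b and Il17d had 0 counts in every library and Il17f at most 1. Il25, the ligand of the IL-17RB complex, was above 3 counts in 2 libraries, with 78 counts at most. T cells are a main source of IL-17A, and their defining markers were at or near 0. Of 11 T cell and Th17 markers 8 had at most 3 counts in all libraries, among them Cd3e, Cd4, Lck and Il23r with at most 2 counts, and Ccr6 and Cd2 with 0. The summed level of the list was 2.06 to 16.6 CPM in GFP+, 0.675 to 6.86 in ctrl periphery and 0 to 24.6 in ctrl center.

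Genes that carry the signal onward were measured in part. Of 20 IL-17 signal transducers 2, Traf5 and Ikbke, had at most 3 counts in any library. The kinase subunit gene Chuk had 60.8 ± 19.1, 46.9 ± 19.3 and 112 ± 48.7 CPM in GFP+, ctrl periphery and ctrl center. Elavl1, which encodes the RNA-binding protein HuR, had 85.3 ± 20.0, 36.7 ± 17.5 and 92.4 ± 86.9 CPM. Among 17, 17 and 15 tested in the comparisons of GFP+ with ctrl center, GFP+ with ctrl periphery and ctrl periphery with ctrl center, edgeR and DESeq2 called 0 each. At an unadjusted p under 0.05 edgeR gave 1 lower (Chuk), 2 higher (Nfkb1 and Elavl1) and 1 lower (Chuk). Of all genes 5.8%, 5.58% and 2.7% passed in either direction, and nothing is read from counts this small. The median log2 fold change of the list was -0.11, 0.22 and -0.13, beside 0.000667, 0.013 and 0.0091 over all genes. Traf6, the ubiquitin ligase bound by Act1, had 10.7 ± 11.9, 4.2 ± 3.4 and 11.9 ± 18.9 CPM. Nfkb1, an NF-kappaB subunit gene, had 14.9 ± 14.7, 0.7 ± 1.4 and 1.8 ± 4.4 CPM, with a log2 fold change of 4.47 (SE 1.80) for GFP+ against ctrl periphery that did not pass (adjusted p = 0.77, edgeR). The p38 kinase gene Mapk14 had 22.1 ± 8.3, 24.0 ± 9.2 and 5.1 ± 4.8 CPM.

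Of 9 brakes on IL-17 signalling 6, 8 and 7 were tested in the same comparisons, and edgeR and DESeq2 called 0 each. At an unadjusted p under 0.05 edgeR gave 1 lower, 0 and 0, again beside 5.8%, 5.58% and 2.7% of all genes. The median log2 fold change was -0.91, -0.11 and -0.40. The gene behind the first count was Zc3h12a, which encodes the ribonuclease Regnase-1, with 0.623 ± 0.413 CPM in GFP+, 1.80 ± 1.39 in ctrl periphery and 2.40 ± 2.02 in ctrl center. The brakes of highest mean CPM were the deubiquitinase gene Usp25 with 38.2 ± 11.8, 62.6 ± 61.5 and 30.0 ± 30.8 CPM and the NF-kappaB inhibitor gene Nfkbia with 8.37 ± 7.47, 12.7 ± 17.005 and 30.9 ± 23.9 CPM. Traf3 followed with 8.7 ± 8.5, 12.2 ± 7.4 and 9.6 ± 10.2 CPM. Tnfaip3, which encodes the deubiquitinase A20, and its binding partner gene Tnip1 had log2 fold changes of 1.90 (SE 1.62) for GFP+ against ctrl periphery and -1.87 (SE 2.07) for ctrl periphery against ctrl center.

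Among 26 genes known as IL-17 targets, 14 had at most 3 counts in every library, among them the chemokine genes Cxcl1 and Ccl20, the cytokine gene Il6 and the calprotectin genes S100a8 and S100a9. Only Cebpb and Cebpd, which encode C/EBP transcription factors, passed the filter on low counts. Cebpd had 32.8 ± 26.5, 37.2 ± 31.9 and 27.0 ± 25.0 CPM in GFP+, ctrl periphery and ctrl center, and Cebpb had 11.9 ± 8.4, 14.1 ± 4.3 and 4.3 ± 5.9 CPM. Arid5a, which encodes an RNA-binding protein, was above 3 counts in 4 libraries, with 310 counts at most. Cxcl5, Nfkbiz, Lcn2 and Mmp13 were above 3 counts in 3, 2, 1 and 1 libraries, with at most 172, 111, 117 and 199 counts. The remaining targets above 3 counts in any library were Cxcl2, Ccl2, Csf2, Pigr and Hsd3b2, with at most 24 counts. Of both tested genes, edgeR and DESeq2 called 0 in each comparison, and 0 had an unadjusted p under 0.05. Their median log2 fold change was 0.88, -0.19 and 1.08 in the 3 comparisons.

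Since IL-17RD acts on FGF signalling, 12 genes of that pathway's receptors and feedback were read beside it. The receptor gene Fgfr2 had 135 ± 43.5, 137 ± 54.5 and 136 ± 99.0 CPM in GFP+, ctrl periphery and ctrl center. The phosphatase gene Dusp6 had 261 ± 73.0, 374 ± 161 and 366 ± 106 CPM. Spry2, a feedback inhibitor, had 118 ± 61.8, 208 ± 116 and 507 ± 537 CPM, with log2 fold changes of -2.10 (SE 0.55) for GFP+ against ctrl center and -1.25 (SE 0.54) for ctrl periphery against ctrl center. The transcription factor gene Etv1 had 2.4 ± 2.1, 14.7 ± 17.2 and 26.3 ± 38.4 CPM, and the inhibitor gene Spred2 had 3.8 ± 4.4, 18.4 ± 8.5 and 4.0 ± 3.7 CPM. Of 12, 11 and 11 tested, edgeR and DESeq2 called 0 each, and at an unadjusted p under 0.05 edgeR gave 2 lower (Spry2 and Etv1), 1 lower (Etv1) and 1 lower (Spry2), where 5.8%, 5.58% and 2.7% of all genes passed in either direction. The median log2 fold change was -0.28, -0.50 and 0.050.

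Il17rc, the nearest neighbour, had the same order of group means as Il17re, with overlapping ranges. Its medians were ordered otherwise, with 0.885 CPM in GFP+, 2.12 in ctrl periphery and 0 in ctrl center. Jagn1, 10254 bases upstream, had 41.2 ± 13.6, 32.1 ± 16.8 and 33.4 ± 18.2 CPM in GFP+, ctrl periphery and ctrl center. Creld1, beyond Il17rc, had 19.3 ± 12.9, 33.7 ± 22.8 and 13.2 ± 10.5 CPM. Cidec, a lipid droplet gene 22723 bases upstream, averaged 0.0072 CPM in GFP+ and 0 in both control groups. Neither Jagn1 nor Creld1 was called in any comparison (adjusted p = 1.00 in each, edgeR).

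The genes whose levels were most like those of Il17re were found by Pearson correlation of log2(CPM + 1) over the 17 libraries, among 7053 other genes with a mean of at least 10 CPM. The 5 highest were Rnaset2a (r = 0.888), Upk3b (r = 0.886), Rnaset2b (r = 0.884), Degs1 (r = 0.875) and Htr3a (r = 0.857). Rnaset2a and Rnaset2b, which encode ribonuclease T2, are near-identical copies, and their reads may be shared between them. Upk3b, a uroplakin gene, had 339 ± 83.3, 69.6 ± 36.0 and 6.61 ± 15.6 CPM in GFP+, ctrl periphery and ctrl center, and Htr3a, a serotonin-gated channel gene, had 537 ± 177, 85.3 ± 33.9 and 11.3 ± 17.6 CPM. Degs1, a ceramide synthesis gene, had 1069 ± 147, 719 ± 284 and 455 ± 183 CPM. With the group means subtracted these correlations were 0.487 to 0.768, and 1 of the 5 genes, Rnaset2b, stayed among the 5 highest. The genes were chosen by correlation over these same libraries, which favours high values within groups too. Nothing further is therefore read from this range, and all points share the depth and scaling of their libraries. The 3 lowest correlations belonged to St6gal1 (r = -0.773), Lrp8 (r = -0.758) and Gstt2 (r = -0.741). Gstt2, a glutathione transferase gene, had 102 ± 43.0, 136 ± 17.9 and 221 ± 36.2 CPM. With plain library totals in place of TMM scaling the 5 highest were the same genes, while the 3 lowest fell to -0.434, -0.223 and -0.424.

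**Figure D5:**
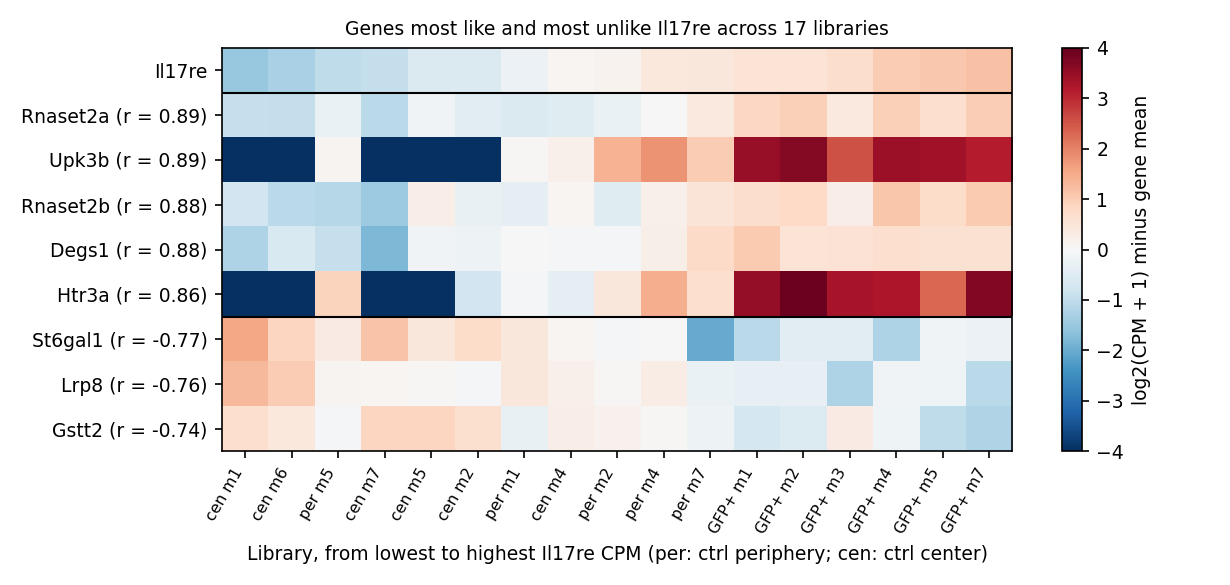
Colour gives log2(CPM + 1) minus each gene's mean, for Il17re and the 8 genes named in the text (rows, with Pearson r to Il17re) in the 17 libraries (columns, from lowest to highest Il17re CPM), and values beyond 4 in either direction are drawn at 4. The 6 GFP+ libraries are the rightmost columns, where Upk3b and Htr3a are far above their means and St6gal1, Lrp8 and Gstt2 are mostly below theirs.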

How the data were processed

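RNA of 17 pools of RPE cells was sequenced, and the authors deposited estimated counts per gene symbol as whole numbers, without normalization. The submitters' processing notes name fastp, Salmon and the build GRCm38.p6, without versions or settings. Groups and mouse numbers came from the sample labels, all 17 columns were used and 0 were left unused. Nothing says that libraries of a group are other than separate pools, so p-values measure the spread between pools. Members and gene lists were chosen with earlier results of these data known.

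Groups were compared in edgeR (version 4.0.16, R version 4.3.3) with filterByExpr, TMM scaling and the quasi-likelihood test, using only the libraries of the groups compared. Calls required a p under 0.01 after Benjamini-Hochberg adjustment together with a log2 fold change beyond 1 in either direction. SE is the log2 fold change divided by the root of F. The alternative tool was DESeq2 (version 1.42.0), which the study's methods name. The other alternatives were median-of-ratios size factors, no filter, 10 counts in 5 libraries, the mouse as replicate block, the run of numbers (mice 1 to 3, mice 4 to 7) as a covariate, all 3 groups in the fit, mitochondrial genes removed, an adjusted p under 0.05, other gene lengths and each library left out in turn. From each list the rule named every called gene, the 3 of highest mean CPM and the 2 of largest absolute log2 fold change per comparison, with the 5 genes most like and the 3 most unlike Il17re and its nearest 2 neighbours on each side. The test was tried on simulated counts with 200 genes changed by a log2 fold change of 3. At a dispersion (spread between libraries beyond counting error) of 0.1 it called 200, 199 and 200 of them in the 3 comparisons, in the order used above. At a dispersion of 1.2 it called 0, 2 and 0. The common dispersion of the data was 1.49, 1.15 and 1.67, so a gene of such spread that did not pass may still differ. Of 22253 symbols 21853 (98.2%) were found in GENCODE M21. Sequence came from RefSeq's promoter table (GRCm38.p6). Some results for single genes are not given.

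Libraries of 1 mouse share an animal number in their labels, which pairs them, except that those of mouse 1 carry the same 2 numbers and need not come from the same animal. Over 15 pairs the correlation of their deviations from the group means was -0.0194 to 0.0927, with 0 above 0.1.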

Additional observations from a re-analysis of the deposited data

Results flagged for a closer look

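In 16 group-by-gene sets of CPM values with any spread, 5 libraries lay far from the rest of their group. Each gap was larger than Dixon's 95% limit, which normally distributed values exceed about 1 time in 20. CPM values of sparse genes are skewed, so this rate need not hold, and the 5 flags are not read as an excess. The ctrl center library of mouse 2 had 5.40 CPM of Il17ra, and the next highest of its group had 0.221. The ctrl center library of mouse 7 had 0.234 CPM of Il17rb, from 2 counts, and the others had 0, so that any count would have been flagged. Il17rd reached 49.3 CPM in the ctrl center library of mouse 5, the library with the fewest detected genes, and 10.6 CPM in the next. Traf3ip2 reached 41.0 CPM in the ctrl center library of mouse 4, with 8.06 in the next, and 7.46 CPM in the ctrl periphery library of mouse 1, with 1.76 in the next. No library stood apart for Il17re by this measure in any group.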

How the results depend on the processing

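The log2 fold change of Il17re kept its sign in every alternative run, at 1.501 to 1.82 for GFP+ against ctrl center, 0.68 to 0.96 for GFP+ against ctrl periphery and 0.65 to 1.01 for ctrl periphery against ctrl center. The adjusted p stayed above 0.01 in the second (0.152 to 1.00) and the third (0.701 to 1.00). Genes called for GFP+ against ctrl center numbered 4, and 8 at an adjusted p under 0.05 with no fold limit, 206 with DESeq2, 2 with 10 counts in 5 libraries, 1 with the run of animal numbers as covariate and 1 to 3 with 1 library left out, within 1.5 times of 4 only without GFP+ mouse 1 or ctrl center mouse 4 or 5. For GFP+ against ctrl periphery they numbered 4, and 66 with DESeq2, 1 with the run covariate, 0 with all 3 groups in the fit and 0 to 5 with 1 library left out, within 1.5 times only without GFP+ mouse 3 or ctrl periphery mouse 4. For ctrl periphery against ctrl center they numbered 0, and 29 with DESeq2. With the mouse as replicate block, the paired fit, the counts were 56 (1 higher and 55 lower), 0 and 0, and no call of a member changed. In that paired fit the sign of Traf3ip2 turned for GFP+ against ctrl center (1.49), those of Il17rc (-0.76) and Il17rd (-0.41) for GFP+ against ctrl periphery and that of Il17rd (0.38) for ctrl periphery against ctrl center. With the run covariate Il17rc (-2.55, GFP+ against ctrl periphery) and Traf3ip2 (0.16, GFP+ against ctrl center) turned. With 1 library left out, Il17rd for GFP+ against ctrl center ran from -1.27 to 0.41 (turned without ctrl center mouse 5) and Traf3ip2 from -0.52 to 1.06 (turned without ctrl center mouse 4 and, at 0.037, without GFP+ mouse 3). For GFP+ against ctrl periphery Il17rc ran from -0.079 (without GFP+ mouse 1) to 1.205 and Il17rd from -0.056 (without GFP+ mouse 5) to 0.81. The cause of these turns was not tested. Depth limits what can be said of genes at or under 3 counts.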

Other observations

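Among 10 macrophage and microglia markers Csf1r, which encodes a growth factor receptor of macrophages, was above 3 counts in all 17 libraries, with 58.9 ± 26.7 CPM in GFP+, 120 ± 18.4 in ctrl periphery and 95.5 ± 28.8 in ctrl center. C1qa, C1qb and Tyrobp had 0 counts throughout. Among the T cell markers Trac had 41 counts in 1 library and Cd3d at most 12. These genes were singled out after their values were seen.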
